A study of Mus musculus with 25 samples.

Results

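The transcripts of 10 growth factor and cytokine genes were followed in leukocytes sorted from injured mouse muscle and in macrophages grown in culture. The genes are Igf1, Pdgfa, Pdgfb, Pdgfc, Vegfa, Vegfb, Gdf15, Gdf3, Tgfb1 and Spp1, taken by symbol, and each symbol has a row in both expression tables, so that 10 of the 38087 genes listed in each table are described. The series had 25 samples in 9 groups, and 7 of the groups have values used here. Poly-A RNA had been sequenced from male C57BL/6J mice of 2 to 4 months whose tibialis anterior, a muscle of the lower leg, was injected with cardiotoxin, a venom peptide that destroys the fibres and lets them regenerate. Muscle leukocytes positive for CD45 were enriched on magnetic beads and sorted by flow cytometry. The muscle groups are Ly6Chigh F4/80low macrophages at day 2 (3 samples) and day 4 (2 samples), Ly6Clow F4/80high macrophages at day 2 (3 samples) and day 4 (2 samples), and Ly6Ghigh neutrophils at day 1 (3 samples). All these animals carried the injury, and no macrophages of uninjured muscle are among the groups. The labels also name blood monocytes and day 1 Ly6Chigh macrophages, and these 6 samples are not analysed here. The cultured cells are bone marrow-derived macrophages (BMDM) of male mice, of 8 to 10 weeks in the protocol and 2 to 4 months in the sample labels. They were grown for 7 days in 10 ng/ml M-CSF and then held for 24 h without it. Of these cultures 3 were left untreated and 3 received 10 nM resolvin D2 (RvD2), a lipid mediator of the resolution of inflammation, for 4 h.

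Macrophages in healing muscle are known to secrete proteins that act on muscle stem cells, fibroblasts and blood vessels. Early after injury the Ly6Chigh cells, which descend from blood monocytes, take up an inflammatory role, and they later turn into Ly6Clow cells that are linked to repair. IGF1 acts on muscle precursors through a receptor tyrosine kinase and is held in check by binding proteins. The PDGF chains bind the receptors PDGFRA and PDGFRB on fibroblasts and pericytes, and the VEGF proteins bind receptors of endothelial cells. TGF-beta 1, GDF3 and GDF15 belong to the TGF-beta superfamily. Osteopontin, the product of Spp1, is a secreted phosphoprotein that binds integrins and CD44.

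Vegfa and Gdf15 responded to RvD2 in opposite directions, and Spp1 had the highest level per length. Pdgfc was called higher in Ly6Clow cells on both days, as were Igf1, Spp1 and Vegfb. From these results the promoters of 4 members, Vegfa, Gdf15, Pdgfc and Spp1, were picked to be shown. Each is the 250 bases upstream of an annotated start, read 5′ to 3′ on the strand of the gene from RefSeq (GRCm38.p6), where 8 of the 10 members were found. Capitals mark the letters GGGCGG (the GC box) or CCAAT (the CCAAT box) on either strand.
Vegfa (chr17:46032378-46032627, minus strand): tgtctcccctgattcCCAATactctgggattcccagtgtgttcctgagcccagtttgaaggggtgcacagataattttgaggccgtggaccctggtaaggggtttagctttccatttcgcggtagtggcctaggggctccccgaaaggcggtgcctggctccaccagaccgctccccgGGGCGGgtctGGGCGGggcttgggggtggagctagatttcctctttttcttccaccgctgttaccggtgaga
Gdf15 (chr8:70632457-70632706, minus strand): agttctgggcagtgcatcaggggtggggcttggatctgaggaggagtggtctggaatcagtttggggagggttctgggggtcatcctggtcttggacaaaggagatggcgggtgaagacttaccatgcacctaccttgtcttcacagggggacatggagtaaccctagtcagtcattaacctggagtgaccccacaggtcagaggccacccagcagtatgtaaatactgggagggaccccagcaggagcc
Pdgfc (chr3:81036166-81036415, plus strand): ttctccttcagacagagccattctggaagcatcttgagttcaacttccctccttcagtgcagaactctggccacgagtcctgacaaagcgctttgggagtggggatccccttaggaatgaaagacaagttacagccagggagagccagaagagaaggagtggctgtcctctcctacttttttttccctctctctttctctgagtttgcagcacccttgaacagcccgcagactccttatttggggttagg
Spp1 (chr5:104434861-104435110, plus strand): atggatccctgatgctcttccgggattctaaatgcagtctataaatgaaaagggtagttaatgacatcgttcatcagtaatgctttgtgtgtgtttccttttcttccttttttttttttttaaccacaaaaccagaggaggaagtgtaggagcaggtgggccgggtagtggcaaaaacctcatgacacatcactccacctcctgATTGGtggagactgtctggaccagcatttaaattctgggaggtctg
The Vegfa window has the GC box at 72 and 62 bases before the start and CCAAT at 235 bases. The Spp1 window has ATTGG, the reverse complement of CCAAT, at 46 bases. Neither letter group is in the Gdf15 and Pdgfc windows shown. The GC box is in 32.7% and CCAAT in 33.8% of all 32851 promoter windows of this length in the table. Other letters searched on both strands were ACGTG (the hypoxia response core, in 16.6% of all windows), TGANTCA (AP-1, 6.75%), TGATGNAA (an ATF4 element, 3.45%), the CRE (1.55%) and the DR1 repeat (0.0335%). None of these 5 is in the 4 windows shown, which says only that the letters are absent from these bases. The exon-free windows of Tgfb1 and Vegfb were left out. They have the GC box at 164, 123, 67, 36 and 16 bases (Tgfb1) and at 180, 121, 115 and 104 bases (Vegfb). Upstream windows that overlap annotated exons, 6 of the 12 belonging to members, are also not shown. Among these, ACGTG or its reverse complement was in another Vegfa window, at 211 bases, and in another Gdf15 window, at 83 and 82 bases. That Vegfa window also had the GC box at 158 bases and ATTGG at 60, and that Gdf15 window had ATTGG at 6.

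Values in muscle are the log2 of normalised read counts, given as a single column for each group. They are read here as the authors' averages over the samples of a group. That reading was inferred from the steps of low values, and no source states it. Because single libraries are not given there, muscle differences carry no error and no test, and neighbouring levels in an order cannot be set against a spread. A fold in muscle is the ratio of normalised counts after 10 was added to each. A gene is called higher or lower where that ratio was at least 2-fold and the higher group had at least 50 normalised counts. In bulk samples of this kind fewer cells of a type and less RNA per cell cannot be told apart.

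The Ly6 genes followed the gates, and Emr1, which encodes F4/80, separated the macrophage subsets only weakly. Emr1 was at log2 13.08 in Ly6Chigh and 13.80 in Ly6Clow cells at day 2, at 13.80 and 14.26 at day 4 and at 11.07 in neutrophils, and it was not called between the subsets on either day. Ly6g was listed at 0 in the macrophage groups and at 7.20 in neutrophils. Ly6c2 was at 11.86 and 13.52 in Ly6Chigh cells and at 7.12 and 6.55 in Ly6Clow cells at days 2 and 4. Summed over 12 neutrophil markers, normalised counts were 2221 to 3002 in the macrophage groups and 345500 in neutrophils. The sum over 9 macrophage markers was 228500 to 334400 in macrophages and 354600 in neutrophils, where Cd14 stood at log2 17.74 and Mertk at 3.69. The whole neutrophil column summed to 26.0 M (mega) normalised counts against 11.9 to 12.8 M in the macrophage columns. The neutrophil levels and folds below were not adjusted for these sums. Ly6Chigh cells at day 4 stood apart. Their sum over 11 fibroblast markers was 25230, against 266 in Ly6Chigh cells at day 2, 90.6 in Ly6Clow cells at day 2 and 1829 in Ly6Clow cells at day 4. Their sums were also the highest among macrophages for 11 T and NK cell markers (1020 against 11.4 to 45.2) and 8 dendritic cell markers (2038 against 76.9 to 287). Its 7 endothelial markers summed to 1206, against 474 to 574 in the other macrophage groups and 4738 in neutrophils. The 12 skeletal muscle markers were higher at day 4 in both subsets, with sums of 255 and 804 in Ly6Chigh and 308 and 1401 in Ly6Clow cells at days 2 and 4. At day 2, 6 of the 12, Myog and Pax7 among them, were listed at 0 in each subset, and at day 4 none was. None of the fibroblast, T and NK or dendritic cell markers was at 0 in Ly6Chigh cells of day 4. The 7 platelet and erythroid markers summed to 3818 in Ly6Chigh and 12140 in Ly6Clow cells at day 2. At day 4 these sums were 913 and 4916. Of those at the level limit Pf4 was called higher in Ly6Clow cells on each day, and 0 were lower. The part of these cells in the growth factor values was not tested.

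Igf1 (ENSMUSG00000020053, chr10:87858265-87937042 in GRCm38/mm10), the gene of insulin-like growth factor 1, was at log2 7.46 in Ly6Chigh and 10.80 in Ly6Clow macrophages at day 2. At day 4 it was at 9.75 and 11.50, and in neutrophils at 3.38. Igf1 was therefore highest in Ly6Clow cells on each day, and the Ly6Clow level of day 2 lay above the Ly6Chigh level of day 4. The Ly6Clow level was 9.62-fold above the Ly6Chigh level at day 2 and 3.34-fold above it at day 4. In Ly6Chigh cells Igf1 was 4.66-fold higher at day 4 than at day 2, while the same ratio in Ly6Clow cells was 1.62-fold and not called. The 2 groups at the ends of the series, Ly6Clow at day 4 and Ly6Chigh at day 2, differed 15.6-fold. Pdgfc differed 15.4-fold between the same groups, and without the added 10 counts its difference (4.57 on the log2 scale) was wider than that of Igf1 (4.03).

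The PDGF genes had 3 different patterns. Pdgfc (ENSMUSG00000028019, chr3:81036416-81214040), which encodes a chain that must be cut by a protease before it binds its receptor, was at log2 4.10 in Ly6Chigh and 7.46 in Ly6Clow cells at day 2. It was at 5.73 and 8.68 at day 4 and at 0.28 in neutrophils. Its ratio of Ly6Clow to Ly6Chigh cells was 6.86-fold at day 2 and 6.63-fold at day 4, and both subsets had more at day 4 (2.33-fold in Ly6Chigh and 2.25-fold in Ly6Clow cells). Because Pdgfc was low in Ly6Chigh cells, the 10 counts added compress its ratios: without them the subsets differed by 3.36 on the log2 scale at day 2 and by 2.94 at day 4. With a level limit of 200 normalised counts Pdgfc was called neither between the subsets at day 2 nor over time in Ly6Chigh cells, and with a pseudocount of 50 the latter call was also lost. Pdgfc was higher in Ly6Clow cells on each day and higher in each subset at day 4 on every one of these scales.

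Pdgfb (ENSMUSG00000000489, chr15:79995874-80014977) encodes the B chain, which binds both PDGF receptors. It was at log2 5.70 in Ly6Chigh and 6.56 in Ly6Clow cells at day 2, at 9.24 and 9.10 at day 4, and at 4.02 in neutrophils. Pdgfb differed by day more than by subset: day 4 exceeded day 2 9.90-fold in Ly6Chigh and 5.34-fold in Ly6Clow cells, and the subsets differed 1.69-fold at day 2 and 1.10-fold at day 4. The fibroblast marker sum was also higher at day 4, at 25230 in Ly6Chigh and 1829 in Ly6Clow cells, and its part was not tested. Pdgfa (ENSMUSG00000025856, chr5:138976014-138997370), the A chain, was at 6.71 in Ly6Chigh and 7.57 in Ly6Clow cells at day 2, at 7.99 and 8.43 at day 4, and at 2.52 in neutrophils. It was called in Ly6Chigh cells over time (2.30-fold higher at day 4) and not in Ly6Clow cells (1.78-fold) or between the subsets (1.74-fold at day 2 and 1.35-fold at day 4).

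**Figure D1:**
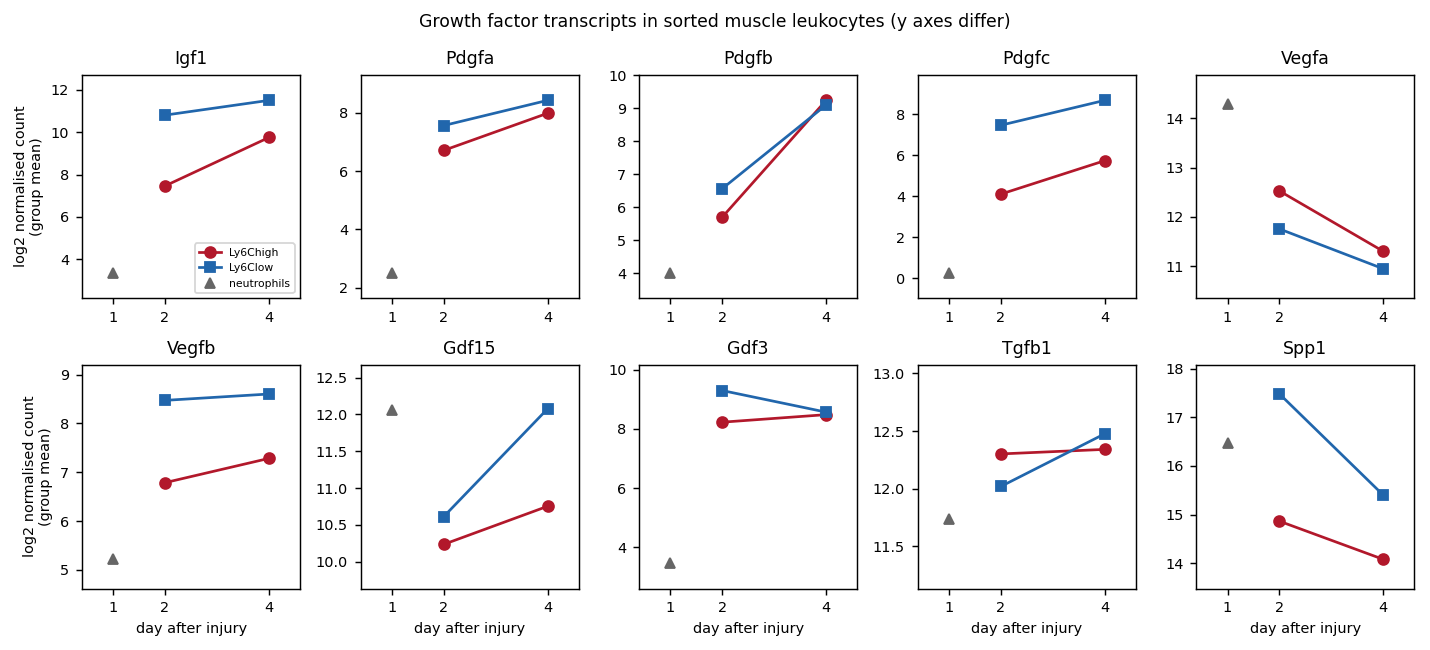
Group means of log2 normalised counts (y axis, scaled per gene) for the 10 genes against the day after injury (x axis), in Ly6Chigh macrophages (red circles), Ly6Clow macrophages (blue squares) and neutrophils (grey triangles). The blue Pdgfc and Igf1 points lie above the red ones on both days, the Pdgfb lines meet near log2 9 at day 4, and Vegfa is lower at day 4 than at day 2 in both subsets.

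Vegfa and Vegfb went opposite ways. Vegfa (ENSMUSG00000023951, chr17:46016993-46032369), the main inducer of vessel growth and a target of hypoxia-inducible factors, was at log2 14.29 in day 1 neutrophils. It was at 12.53 in Ly6Chigh and 11.76 in Ly6Clow macrophages at day 2, and at 11.30 and 10.95 at day 4. The order therefore ran downward from neutrophils to Ly6Clow cells of day 4. Neutrophils exceeded Ly6Chigh cells of day 2 3.39-fold, Ly6Chigh cells had 2.33-fold less at day 4 than at day 2, and Ly6Clow cells at day 4 had 2.98-fold less than Ly6Chigh cells at day 2. Between the subsets of 1 day the Ly6Clow level was 1.70-fold lower at day 2 and 1.28-fold lower at day 4, and neither was called. Vegfb (ENSMUSG00000024962, chr19:6982473-6987651), which binds the receptor FLT1, was at 6.79 in Ly6Chigh and 8.47 in Ly6Clow cells at day 2, at 7.28 and 8.60 at day 4, and at 5.22 in neutrophils. Vegfb differed by subset, 3.03-fold at day 2 and 2.40-fold at day 4, and was not called over time in either subset (1.38-fold and 1.09-fold).

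Among the TGF-beta superfamily genes, Tgfb1 (ENSMUSG00000002603, chr7:25687002-25705077) varied least. It was at log2 12.30 in Ly6Chigh and 12.02 in Ly6Clow cells at day 2, at 12.34 and 12.48 at day 4, and at 11.73 in neutrophils, and it was called in none of the 6 muscle comparisons. Its lowest and highest macrophage groups differed 1.37-fold. Gdf15 (ENSMUSG00000038508, chr8:70629393-70632456), a stress-induced hormone whose receptor is known in the hindbrain, was at 10.23 in Ly6Chigh and 10.61 in Ly6Clow cells at day 2, at 10.75 and 12.08 at day 4, and at 12.06 in neutrophils. On this normalisation the Ly6Clow cells of day 4 and the neutrophils thus shared the top of the order. Their columns summed to 12.76 M and 26 M normalised counts, and the levels were not adjusted for that. Gdf15 was called in Ly6Clow cells over time (2.75-fold higher at day 4) and between the subsets at day 4 (2.49-fold), while the subsets differed 1.30-fold at day 2. Gdf3 (ENSMUSG00000030117, chr6:122605403-122610087), a ligand of activin-type receptors, was at 8.23 in Ly6Chigh and 9.30 in Ly6Clow cells at day 2, at 8.48 and 8.57 at day 4, and at 3.47 in neutrophils. Its subset ratio was 2.06-fold at day 2, just past the limit, and 1.06-fold at day 4, and neutrophils were 14.7-fold below Ly6Chigh cells of day 2.

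Spp1 (ENSMUSG00000029304, chr5:104435118-104441050) was at log2 14.87 in Ly6Chigh and 17.48 in Ly6Clow cells at day 2, at 14.08 and 15.40 at day 4, and at 16.47 in neutrophils. It was highest in Ly6Clow cells of day 2, where it was 6.13-fold above Ly6Chigh cells, and was 2.50-fold above them at day 4. In Ly6Clow cells it was 4.23-fold lower at day 4 than at day 2, so that Spp1 was the member with the largest drop over time in that subset. The same ratio in Ly6Chigh cells was 1.72-fold lower and not called. Neutrophils were 3.04-fold above Ly6Chigh cells of day 2.

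Levels can be set between genes only per length, here as log2 normalised counts per kilobase of annotated exon. On that scale Spp1 had the highest level of the 10 genes in every muscle group, from 13.36 in Ly6Chigh cells at day 4 to 16.76 in Ly6Clow cells at day 2. Vegfa, Tgfb1 and Gdf15 followed in each of the 5 groups, with levels per kilobase of 8.85 to 12.19 for Vegfa, 9.40 to 10.14 for Tgfb1 and 9.35 to 11.19 for Gdf15. Pdgfc had the lowest level per kilobase in Ly6Chigh cells (1.76 at day 2 and 3.39 at day 4), in Ly6Clow cells of day 4 (6.33) and in neutrophils (-2.07), and only Pdgfb was below it in Ly6Clow cells of day 2 (4.50 against 5.11). The Igf1 level per kilobase moved from 4.16 in Ly6Chigh cells of day 2 to 8.19 in Ly6Clow cells of day 4. In untreated BMDM, whose table was normalised separately, Spp1 was again first with a mean level per kilobase of 14.83, and Igf1 stood at 9.26 and Pdgfc at 7.17.

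**Figure D2:**
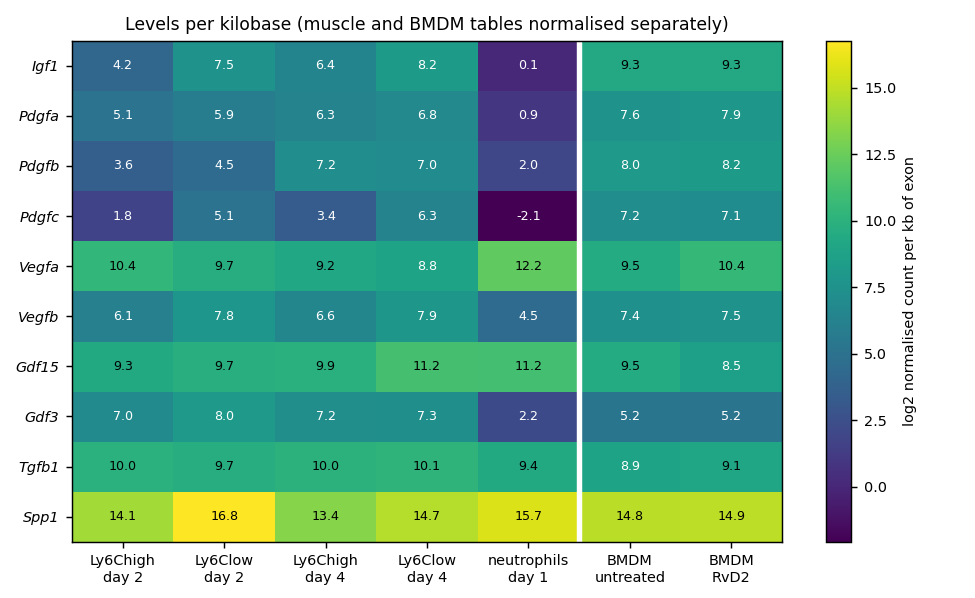
Log2 normalised counts per kilobase of exon (colour and printed value) for the 10 genes (rows) in the 5 muscle groups and as means of the 3 untreated and the 3 RvD2-treated BMDM libraries (columns). The Spp1 row is the highest in all columns, and the white line separates the tables, which were normalised separately.

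Counted by comparison, 5 of the 10 genes were higher in Ly6Clow than in Ly6Chigh cells at day 2 (Igf1, Pdgfc, Spp1, Vegfb and Gdf3) and 0 were lower. Of the 11275 genes at the level limit 5.90% were higher and 5.46% lower. At day 4 the 5 higher genes were Pdgfc, Igf1, Spp1, Gdf15 and Vegfb, again with 0 lower, where 2.98% of 11764 genes were higher and 4.22% lower. The members' median log2 ratio was 0.92 at day 2 and 0.85 at day 4, while the median of all genes was -0.00 and 0.01. Over time in Ly6Chigh cells 4 members were higher at day 4 (Pdgfb, Igf1, Pdgfc and Pdgfa) and 1 was lower (Vegfa), against 9.67% and 3.74% of 11618 genes. In Ly6Clow cells 3 were higher (Pdgfb, Gdf15 and Pdgfc) and 1 was lower (Spp1), against 8.08% and 3.24% of 11560 genes. Between Ly6Clow cells of day 4 and Ly6Chigh cells of day 2, 6 were higher (Igf1, Pdgfc, Pdgfb, Gdf15, Vegfb and Pdgfa) and 1 was lower, against 12.6% and 6.66% of 11628 genes. The members' median log2 ratio there was 1.68. In neutrophils against Ly6Chigh cells of day 2, 3 were higher (Gdf15, Vegfa and Spp1) and 5 lower (Gdf3, Igf1, Pdgfa, Vegfb and Pdgfb), against 30.9% and 27.6% of 11789 genes, and Pdgfc was under the level limit. The members' count is read against that high share of genes called, and the median of all genes was 0.15. The neutrophil column also summed to 26 M normalised counts against 12.53 M in Ly6Chigh cells of day 2. The folds between these groups were not adjusted for that. These comparisons share groups, Ly6Chigh cells of day 2 being in 4 of them, so their counts are not independent.

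**Figure D3:**
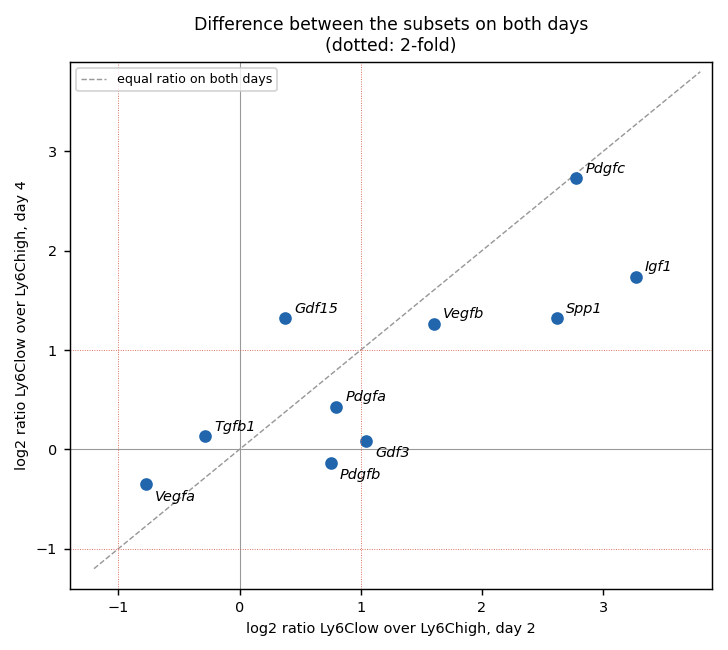
Log2 ratio of Ly6Clow over Ly6Chigh macrophages at day 2 (x axis) and day 4 (y axis), 1 point per gene, with dotted lines at 2-fold and a dashed line of equal ratios. Pdgfc lies near the dashed line at the pseudocount of 10 used here (-0.05, against -0.42 with none and 0.40 with 50), Igf1 and Spp1 lie below it and Gdf15 lies above it.

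The log2 ratio of Ly6Clow over Ly6Chigh cells was lower at day 4 for some members and higher for others. The log2 ratio at day 4 minus that at day 2 was -1.53 for Igf1, -1.30 for Spp1, -0.96 for Gdf3 and -0.89 for Pdgfb. It was 0.94 for Gdf15, whose subsets lay further apart at day 4 (log2 ratio 0.37 at day 2 and 1.32 at day 4). It was 0.42 for both Vegfa and Tgfb1, whose subsets lay closer together at day 4. The Vegfa ratio was -0.77 at day 2 and -0.35 at day 4, and the Tgfb1 ratio was -0.28 and 0.13. Pdgfa and Vegfb were at -0.37 and -0.34. The Pdgfc value depended on the pseudocount, at -0.05 with 10, -0.42 with none and 0.40 with 50, so no direction is given for it. These differences have no replicate check, since the values are group means.

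For 8 members whose level spanned at least 4-fold over the 5 muscle columns, the genes of most similar pattern were found by the root mean square difference of centred log2 values, over 5 columns only and 5291 genes of enough level and span. For Igf1 these were Scamp5 (0.19), Cd5l (0.28), a secreted protein of tissue macrophages, and Olfml3 (0.45). For Pdgfc they were Mfge8 (0.20), a bridging protein for dying cells, Mmp27 (0.24) and Cdca3 (0.36). For Pdgfb they were the chemokine Cxcl16 (0.30), D17H6S56E-5 (0.32) and Cd72 (0.33). The closest to Vegfa was Dusp14 (0.13), to Vegfb Wdpcp (0.10), to Pdgfa Arhgap22 (0.09), to Gdf3 Dock1 (0.14) and to Spp1 Rnf128 (0.21).

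Ligands related to the members were mostly scarce. Of 21 other ligands of the same families only 2 to 4 reached the level limit in any muscle comparison. Igf2 was at log2 0.08 in Ly6Chigh cells of day 2 and 6.40 at day 4, and it was listed at 0 in Ly6Clow cells of day 2 and at 6.54 at day 4. The skeletal muscle marker sum was higher at day 4 in both subsets too (804 against 255 and 1401 against 308), and its part was not tested. Among 29 other growth factors 12 reached the limit at day 2. In Ly6Clow cells 0 of the 12 were higher and 5 lower, against 5.90% and 5.46% of all genes at the limit. The lower ones include Nrg1 (4.51-fold), Osm (3.40-fold), Areg (3.00-fold) and Il10 (2.99-fold), ligands of the ERBB, oncostatin and interleukin-10 receptors. At day 4, 0 of 13 were higher and 2 lower, against 2.98% and 4.22% of all genes at the limit. The 2 were Cyr61 (6.32-fold) and Ctgf (5.16-fold), matrix-associated proteins. The fibroblast marker sum was 1829 in Ly6Clow and 25230 in Ly6Chigh cells, and its part was not tested. In neutrophils 6 of 13 were higher than in Ly6Chigh cells of day 2 and 4 were lower, against 30.9% and 27.6% of all genes. Csf1 was at log2 16.62 in neutrophils against 7.64.

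In Ly6Clow against Ly6Chigh cells, 5.90% of all genes at the level limit were higher and 5.46% lower at day 2. At day 4 these shares were 2.98% and 4.22%, and they apply to the subset counts of the lists below. Among the IGF receptors and binding proteins, at day 2 Ly6Clow cells had 1 of 6 higher and 1 lower. Igfbp4, which sequesters IGFs, was 4.42-fold higher and Igfbp6, which prefers IGF2, was 6.38-fold lower. At day 4, 2 of 9 were lower, Igfbp7 (6.35-fold) and Igfbp6 (3.17-fold), and 2 were higher, Igfbp4 (3.48-fold) and Igf2r (2.47-fold), a receptor that clears IGF2. The PDGF and VEGF receptors and processing genes gave 2 of 8 higher at day 2, the VEGF co-receptors Nrp1 (2.38-fold) and Nrp2 (2.19-fold), and 2 lower, the VEGF receptor Flt1 (2.71-fold) and Sparc (2.25-fold), a matrix protein that binds PDGF. At day 4, 1 of 11 was higher, Nrp2 (3.30-fold), and 6 were lower in Ly6Clow cells, among them Flt1 (7.65-fold), Pdgfra (6.19-fold), Sparc (5.27-fold) and Pdgfrb (4.18-fold). Nrp2 is named here after its value was seen. Pdgfra and Pdgfrb are also on the fibroblast marker list, whose sum was 25230 in Ly6Chigh cells and 1829 in Ly6Clow cells at day 4. The endothelial marker sum was 1206 and 479 in these groups, with 3 of the 4 endothelial markers at the level limit lower in Ly6Clow cells, and the part of fibroblasts and endothelial cells was not tested.

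Of the genes that activate or receive TGF-beta signals, 2 of 21 were higher in Ly6Clow cells and 5 lower at day 2, and 1 of 24 was higher and 5 lower at day 4, where the largest changes were those of Dcn (9.52-fold lower), which is also a fibroblast marker, Ltbp2 (8.78-fold lower) and Ltbp4 (5.61-fold lower). Ltbp3, a latent TGF-beta binding protein, was higher at day 2 (2.54-fold) and day 4 (3.07-fold). Thbs1, which can release TGF-beta from its latent form, was 3.15-fold lower at day 2, and the signal transducer Smad3 was 4.57-fold lower. Of the TGF-beta response genes 1 of 15 was higher and 4 lower at day 2, among them Tgfbi (4.99-fold) and Id1 (4.61-fold), and 0 of 16 were higher and 4 lower at day 4: Col1a1 (13.6-fold), Ctgf (5.16-fold), Fn1 (2.77-fold) and Id1 (2.23-fold). Col1a1 is a fibroblast marker as well. The fibroblast sum at day 4 was 25230 in Ly6Chigh and 1829 in Ly6Clow cells, and its part was not tested. Among the 7 osteopontin receptor genes at the limit on day 2, Cd44 was lower in Ly6Clow cells (2.32-fold) and 0 were higher. Over time in Ly6Chigh cells 3 of 8 were higher at day 4, with the integrin gene Itga9 at 6.43-fold, and 1 was lower, Cd44 (2.14-fold). In Ly6Clow cells 2 of 7 were higher, with Itga9 at 4.54-fold, and 0 were lower. Of all genes at the limit 9.67% were higher and 3.74% lower over time in Ly6Chigh cells, and 8.08% and 3.24% in Ly6Clow cells.

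Of 21 regulators that are known for members, such as hypoxia-inducible factors and AP-1 factors, 1 was higher and 4 were lower in Ly6Clow cells at day 2. Epas1, which encodes HIF-2alpha, was 5.39-fold higher, and Egln3, a hydroxylase induced by hypoxia that marks HIF for degradation, was 5.25-fold lower. At day 4, 2 were higher in Ly6Clow cells, Rxra (2.61-fold) and Epas1 (2.50-fold), and 0 were lower. In Ly6Chigh cells 0 were higher and 4 lower at day 4 than at day 2, against 9.67% and 3.74% of all genes at the limit. The 4 were Egln3 (6.76-fold), Hif1a (2.36-fold), Cebpb (2.07-fold) and Egln1 (2.07-fold). Vegfa was lower in that comparison too, and the relation was not tested.

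RvD2 raised Vegfa and lowered Gdf15 in the macrophage cultures. Vegfa was at log2 11.59, 11.66 and 11.51 in the 3 untreated libraries and at 12.49, 12.49 and 12.63 in the 3 treated ones. The groups did not overlap, and each treated library lay above all untreated ones. Vegfa rose by 0.95 on the log2 scale (SE 0.06, n = 3 and 3), which is 1.94-fold, with an adjusted p of 0.00118 in limma, and it ranked 2 by p among the 15239 genes tested. Gdf15 was at 10.35, 10.30 and 10.54 untreated and at 9.74, 9.26 and 9.30 treated, so that every treated library lay below the untreated ones. Gdf15 fell by 0.96 (SE 0.13), 1.95-fold, with a limma adjusted p of 0.00936. Without the third RvD2 library its adjusted p was 0.0592, and in limma without a mean-variance trend it was 0.0741. The limma adjusted p of Gdf15 ranged from 0.00105 to 0.0741 and that of Vegfa from 7.4e-05 to 0.0304 over the 13 alternatives.

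Of the 10 members 1 rose and 1 fell, against 0.794% and 1.06% of all tested genes. In 5 members the treated and untreated libraries did not overlap, against 21.0% of all tested genes. Besides Vegfa and Gdf15 these were Pdgfa, Tgfb1 and Pdgfb, which did not pass the limma threshold. Pdgfa was at 9.21, 9.30 and 9.14 untreated and 9.49, 9.47 and 9.60 treated, a difference of 0.30 (95% interval 0.15 to 0.46) with a limma adjusted p of 0.0658. Tgfb1 was at 11.09, 11.25 and 11.27 untreated and 11.44, 11.36 and 11.42 treated, a difference of 0.20 (0.07 to 0.34, limma adjusted p 0.147). Pdgfb was at 9.99, 10.19 and 10.06 untreated and 10.25, 10.25 and 10.27 treated, a difference of 0.18 (0.03 to 0.32, limma adjusted p 0.213). All 3 genes were higher in every treated library than in any untreated one, by 1.23-fold, 1.15-fold and 1.13-fold on average.

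The other 5 members had overlapping groups. Igf1 averaged 12.57 ± 0.11 untreated and 12.64 ± 0.20 treated (SD, n = 3), with a 95% interval of the difference from -0.16 to 0.30. Spp1 averaged 15.55 ± 0.07 and 15.61 ± 0.09 (-0.10 to 0.23), and Vegfb 8.05 ± 0.09 and 8.21 ± 0.09 (-0.04 to 0.35). For these genes, and for Pdgfc and Gdf3 below, a change of 2-fold lay outside the interval. Pdgfc averaged 9.52 ± 0.04 and 9.44 ± 0.08 (-0.22 to 0.06). Gdf3, the member with the lowest value, averaged 6.51 ± 0.25 and 6.43 ± 0.57, and its interval from -0.69 to 0.53 was the widest. Its estimated reads numbered 43 to 110 per library, where counting alone gives an error of up to 15.3%, against at most 7.15% for any other member.

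**Figure D4:**
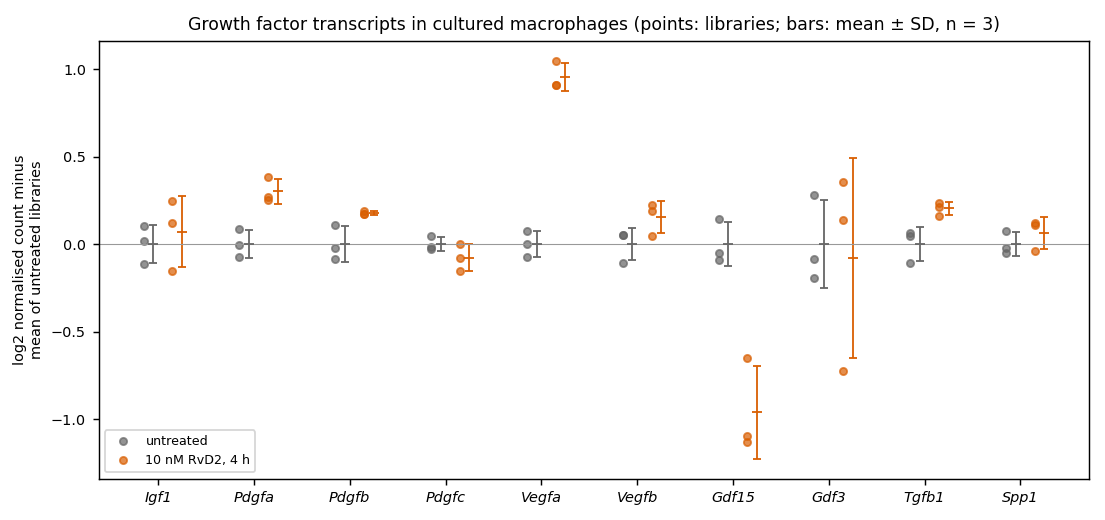
Log2 normalised counts minus the mean of the 3 untreated libraries (y axis) for the 10 genes (x axis) in untreated (grey) and RvD2-treated (orange) BMDM, with points for libraries and bars for the mean ± SD (n = 3). The treated Vegfa points sit near 0.95 above the untreated mean, the treated Gdf15 points sit below all untreated ones, and the treated Gdf3 points spread most.

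Other growth factor genes also responded. Among 23 tested, 3 rose and 0 fell, against 0.794% and 1.06% of all tested genes. The 3 were Lif (log2 change 1.04, SE 0.12, limma adjusted p 0.00733) and Osm (0.99, SE 0.13, 0.0106), cytokines that signal through gp130, and Hbegf (0.49, SE 0.07, 0.0138), an EGF receptor ligand. Their list median was 0.25, against -0.00 for all genes tested. None of the 12 other ligands of the members' families, of the 14 IGF receptors and binding proteins or of the 17 TGF-beta response genes passed the limma threshold in either direction. Among the receptors and activators, the VEGF co-receptor Nrp1 fell by 0.29 (1 of 14), Thbs1 rose by 0.52 (1 of 31) and the osteopontin receptor chain Itga9 rose by 0.42 (1 of 8).

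Of 21 regulators known for members 6 rose and 0 fell with RvD2, against 0.794% and 1.06% of all tested genes. The HIF hydroxylase gene Egln3 rose by 0.86 (limma adjusted p 0.0119) and the AP-1 gene Fosl2 by 0.68 (0.00393). Atf4 and Ddit3, genes of the integrated stress response that are known to drive Gdf15, rose by 0.39 (0.00716) and 0.80 (0.00324). Gdf15 fell, and the relation was not tested. The marker sums overlapped between treated and untreated libraries. The fibroblast markers summed to 45290 to 53060 normalised counts untreated and 40540 to 63340 treated, and the neutrophil markers to 4792 to 15540 and 4867 to 9655. Every BMDM library thus had a larger fibroblast marker sum than any muscle group. The highest of those was 25230, in Ly6Chigh cells of day 4, normalised separately. The part of fibroblasts in the BMDM values was not tested. Of 9 macrophage markers Cd14 rose, by 1.11, and 0 fell.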

How the data were processed

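The authors deposited 2 tables of log2 normalised counts, in which anything below 1 stands at 0. Of these, 1 has a column per BMDM library. The other has a column per muscle group, read here as the authors' group mean. The build mm10, DESeq and TopHat2 2.0.7 are named, without roles, per the submitters' processing notes, and the sources used here do not give the annotation. Per the labels' protocols a TruSeq poly-A kit was used, which marks no strand, so overlapping genes cannot be told apart. The tables were normalised separately. No column (0) belonged to other samples.

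Treated and untreated BMDM were compared by limma 3.58.1 under R 4.3.3 (trend, genes of mean at least 10 normalised counts, two-sided, Benjamini-Hochberg threshold 0.05), tested on simulated data. No label says that replicates came from different animals or cultures, so the p-values cover spread that may be technical. The smallest steps between low values put the depth of the libraries at 9.05 to 14.3 M (mega) reads in genes, but only 37.5 to 49.6% of low values lay within 0.02 of a whole multiple, so no count test was run. Estimated reads cover counting error only. Muscle depth is unknown.

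Gene models and lengths came from GENCODE M21. The members, the 8 other gene lists, the 11 marker lists, and the comparisons were chosen with earlier results of these data known, and 3 of the 7 promoter motifs (GC box, CCAAT box, ATF4 element) after the values were seen. Members are always named. Up to 4 called genes per list and comparison are named, by size of change (BMDM: smallest p), with exceptions stated, and up to 3 genes of most similar pattern per member. Alternatives were other pseudocounts, limits, scalings and models, the replicate number as a block, and leaving out each library. Python 3.11.15, numpy 2.4.6, pandas 2.3.3 and matplotlib 3.10.9 were used.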

Additional observations from a re-analysis of the deposited data

How the results depend on the processing

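No member's called direction reversed under any alternative that was run. In muscle, the called members numbered 8 with a limit of 1.5-fold instead of 5 at day 2 and instead of 4 in Ly6Clow cells over time. They numbered 3 instead of 5 in Ly6Chigh cells over time with a pseudocount of 50, and 4 instead of 8 in neutrophils with a level limit of 200. The share of all genes called under these settings is not given here, so the counts cannot be read against it. With that pseudocount Gdf3 at day 2 and Pdgfa and Pdgfc over time in Ly6Chigh cells were not called, nor were Pdgfb and Vegfb in neutrophils. With the level limit of 200 the lost calls were Pdgfc between the subsets at day 2 and over time in Ly6Chigh cells, and Igf1, Pdgfa, Pdgfb and Vegfb in neutrophils. The shift of the Pdgfc subset ratio between days, which carries no call, went from -0.05 to 0.40 with a pseudocount of 50. No paired analysis was possible because the muscle columns are group means; their group sizes and depth limit precision in a way that cannot be read from the values. In BMDM the 283 genes called became 49 without a mean-variance trend and 137 with no level limit, and members called became 1 without the trend. Leaving out 1 library gave 79 to 290 genes and 1 to 2 members. Vegfa was called in all of these fits. With the replicate number as a block 1066 genes and 3 members were called, Pdgfa with a limma adjusted p of 0.0333. The numbers were not taken as pairs, since the correlations of same-numbered deviations were 0.29, 0.02 and 0.05. The cause of these shifts was not tested.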
